A study of Mus musculus with 20 samples.

Results

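The regions described here are stretches of open chromatin deep inside long genes. They were found by merging the peaks of all 20 ATAC-seq lists wherever they shared at least 1 bp, and by keeping the regions that lay inside a protein-coding gene of 100 kb or more and more than 10 kb from both ends of every protein-coding gene. Of 101352 merged regions, 20264 met this rule, and 2078 of the 2427 protein-coding genes of that length held at least 1 of them. They are called deep long-gene regions below, and the remaining regions are 9925 deep regions of shorter genes, 28644 distal intergenic regions and 42519 regions within 10 kb of a gene end.

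ATAC-seq maps open chromatin with a transposase that cuts accessible DNA. It was run on C2C12, a line of mouse myoblasts, the precursors of muscle cells, able to differentiate in culture. Wild-type cells (WT) and cells lacking Setd2 (KO) were compared at day 0 (D0), and in 2 media, control (CTL) and methionine-restricted (MR), at day 1 (D1) and day 5 (D5). There were 10 groups of 2 libraries. The KO libraries of a group came from lines 1 and 2, and the labels do not say whether a line is 1 clone, how the gene was disrupted, or whether the WT replicates were separate cultures. The p-values therefore measure the spread between these libraries, which may be technical. The genotype tests also count libraries of the same KO line at different days and in different media as separate.

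Setd2 is the enzyme that places 3 methyl groups on lysine 36 of histone H3 as RNA polymerase II passes through a gene, so this mark covers the bodies of transcribed genes and tends to build up away from the start. The methyl groups come from S-adenosylmethionine, which cells make from methionine. Long genes have large introns that often hold enhancers and start sites of shorter transcripts, and in other systems loss of the mark has been linked to transcription starting inside genes. Whether open chromatin deep in genes differed between WT and KO, by day, by medium and by position along the gene, was the question addressed here.

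Most of the deep long-gene regions were short and were seen in a minority of libraries. Their median length was 158 bp, against 198 bp for regions within 10 kb of a gene end, and their median distance to the nearest gene end was 53.7 kb. Each was called, that is overlapped by a peak, in a median of 4 of the 18 libraries used for the tests, against 7 for regions near gene ends. All 18 libraries called 1316 of them (6.49%), and 4549 (22.4%) were called in 0 or 1 of the 18. The corresponding percent called in all 18 was 16.98% near gene ends, 8.73% in shorter genes and 6.08% in distal intergenic DNA. In each of these 18 lists their strength, the rank of the peak by its p-value within that list, had a median between percentiles 43.9 and 47.3, close to the range of 43.8 to 48.5 for distal intergenic peaks. At the edge of the rule, 20 regions lay 10000 to 10100 bp from a gene end and were called in a mean of 4.95 libraries, and 26 regions of long genes lay 9900 to 10000 bp away and were called in a mean of 8.31. The 136 regions in genes of 100 to 101 kb were called in a mean of 7.89 libraries and the 124 in genes of 99 to 100 kb in 6.38.

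The lists differed in length and depth, and 2 of them stood far apart. The D5 libraries of KO line 1 held 644 peaks in CTL and 1881 in MR. The depth read from fold and p-value, as the background number of fragments over a position, was 0.128 and 0.101 in these 2 libraries and 1.42 to 5.88 in the other 18, whose lists held 20847 to 69881 peaks. Tests were therefore made on 18 libraries, so that KO at D5 was line 2 alone, which cannot show the spread between KO lines at that day. Among the 18, the background was 3.17 to 5.88 in WT and 1.42 to 5.20 in KO. Setd2 itself spans 86.1 kb and so held none of these regions, and a peak at its ends was present in all 18 libraries, which does not check the knockout. Gene ends of the myoblast markers Des and Cdh15 had a peak in all 18 libraries and Myod1 in 10 of 10 WT and 7 of 8 KO libraries, whereas Myf5 and Pax7 had none. Those of the muscle cell markers Myog, Acta1, Actc1, Ckm and Mymk had one in 8, 8, 6, 5 and 10 of 10 WT libraries and in 0, 1, 0, 0 and 4 of 8 KO libraries. Ptprc, Cdh5, Epcam, Alb and Gfap, markers of other cell types, had none, while Spi1 had one in all 18, Cd68 in 7 of 10 WT and 6 of 8 KO libraries and Sox10 in 1 KO library. The part of differentiation state in the genotype differences below was not tested.

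Some of these regions sat at annotated starts of shorter transcripts of the same gene. Of the 20264, 224 overlapped an annotated start window of their own host. They were longer, with a median of 338 bp against 157 bp for the other 20040, and were called in a median of 13.5 of 18 libraries against 4. All 18 libraries called 69 of them (30.8%), against 6.22% of the others. The 250 bases before such a start are shown for 5 genes, 3 called in all 18 libraries with high ranks (Mylk, Runx1 and Palld), Trak1, which had the lowest genotype p, and Filip1, 1 of 5 with the next lowest p. The windows are from RefSeq on GRCm38, 5′ to 3′ on the strand of the gene. Capitals mark the E-box CAGCTG bound by myogenic factors, the AP-1 motif TGANTCA and the Runx motif TGTGGT, searched on both strands, the last therefore also as ACCACA. Sequences of regions away from annotated starts are not shown here.
Mylk, chr16:34784700-34784949, plus strand: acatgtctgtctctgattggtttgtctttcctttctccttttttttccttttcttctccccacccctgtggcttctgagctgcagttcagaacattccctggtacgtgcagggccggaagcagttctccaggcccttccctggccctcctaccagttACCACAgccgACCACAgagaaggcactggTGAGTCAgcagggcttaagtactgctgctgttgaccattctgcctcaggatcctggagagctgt
Runx1, chr16:92697330-92697579, minus strand: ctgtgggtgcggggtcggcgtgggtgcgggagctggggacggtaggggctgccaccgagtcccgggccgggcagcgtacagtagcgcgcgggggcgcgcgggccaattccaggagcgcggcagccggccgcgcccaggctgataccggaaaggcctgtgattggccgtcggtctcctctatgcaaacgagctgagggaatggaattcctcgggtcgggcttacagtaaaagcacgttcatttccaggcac
Palld, chr8:61591140-61591389, minus strand: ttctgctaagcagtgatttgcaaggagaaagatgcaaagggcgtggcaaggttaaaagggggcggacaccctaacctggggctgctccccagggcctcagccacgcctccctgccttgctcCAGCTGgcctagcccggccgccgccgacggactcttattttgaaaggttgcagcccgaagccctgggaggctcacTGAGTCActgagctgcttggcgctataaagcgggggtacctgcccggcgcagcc
Trak1, chr9:121403196-121403445, plus strand: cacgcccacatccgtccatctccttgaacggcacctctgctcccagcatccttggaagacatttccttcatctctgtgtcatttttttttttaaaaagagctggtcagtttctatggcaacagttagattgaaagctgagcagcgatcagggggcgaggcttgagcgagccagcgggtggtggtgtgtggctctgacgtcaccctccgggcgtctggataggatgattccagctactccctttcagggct
Filip1, chr9:79977883-79978132, minus strand: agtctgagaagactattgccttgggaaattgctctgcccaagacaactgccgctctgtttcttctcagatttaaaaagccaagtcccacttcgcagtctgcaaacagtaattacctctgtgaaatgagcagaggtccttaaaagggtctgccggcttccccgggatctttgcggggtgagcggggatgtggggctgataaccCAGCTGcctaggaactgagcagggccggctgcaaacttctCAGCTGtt

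The internal start of Mylk, which encodes myosin light chain kinase, had 1 AP-1 and 2 Runx matches, and that of Palld, which encodes the actin-binding protein palladin, had 1 E-box and 1 AP-1 match. The window of Runx1, a transcription factor gene, held none of these letters and was the richest in G and C (67.6%) with 27 CpG. Trak1, encoding a mitochondrial transport adaptor, had no match, and Filip1, encoding a filamin-binding protein, had 2 E-boxes. Over 32851 start windows of this length, 4271 held the E-box, 2217 (6.75%) the AP-1 motif and 4614 (14.05%) the Runx motif. The region at the Mylk start (chr16:34784756-34784967, 15.4% of the way along the gene), that at the Runx1 start (chr16:92696620-92698178, 57.3%) and that at the Palld start (chr8:61590884-61591673, 79.6%) had a peak in every one of the 18 libraries. The region at the Trak1 start had a peak in 6 of 10 WT libraries and 0 of 8 KO libraries, and the adjusted p of the exact permutation test over regions described below was 0.0504. The region at the Filip1 start had one in 9 of 10 WT libraries and 2 of 8 KO libraries (adjusted exact permutation p = 0.0540). The other regions with that p were at starts of Clasp2 (7 of 10 WT and 1 of 8 KO libraries) and R3hdm1 (8 and 2), and, in the opposite direction, of Aim2 and Elavl2 (0 of 10 WT and 5 of 8 KO libraries each). Of the 224 regions at internal starts, 42 could be tested for genotype and 0 passed, with 16 at an unadjusted exact permutation p under 0.05. Of the other deep long-gene regions 542 of 3989 (13.6%) passed, and the background over all regions was 11.5%. Among those 3989, 2056 had an unadjusted exact permutation p under 0.05.

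The share of each list that fell in deep long-gene regions did not separate KO from WT. Across the 18 libraries the share was 13.9% to 19.01% with a median of 17.3%. At D0 it was 17.3% and 17.4% in WT and 17.6% and 17.1% in KO lines 1 and 2. At D1 in CTL it was 18.2% and 17.3% in WT and 19.01% and 17.4% in KO, and in MR it was 18.6% and 17.8% in WT and 18.4% and 16.4% in KO. The groups overlapped in each of these 3 conditions. At D5 the WT libraries had 13.9% and 13.9% in CTL and 16.8% and 16.6% in MR, and KO line 2 had 15.9% in CTL and 15.1% in MR. The mean difference over the 5 conditions, KO minus WT, was 0.0107 percentage points, higher in KO in 2 of 5 (two-sided exact permutation test within conditions, p = 0.981, adjusted 0.981 over 11 tests).

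The share was lower at D5 than at D1. It fell by 3.87 points in WT in CTL, by 1.48 in WT in MR, by 2.26 in KO in CTL and by 2.35 in KO in MR, and D5 and D1 libraries did not overlap in any of these 4 comparisons. The mean difference was -2.49 points (exact permutation p = 0.00617, adjusted 0.0170). With the KO libraries and the equally numbered WT libraries kept in pairs it was -2.25 points and was no longer called (adjusted exact permutation p = 0.0688). Pairing also leaves fewer arrangements for a small p. List length moved with this measure, since the D5 lists of the 18 held 20847 to 39538 peaks and the D1 lists 35201 to 69881. Among the 20000 strongest peaks of each list the difference was -1.34 points, and when depth was equalised to the shallowest of the 18 libraries it was -2.86 points. Equalising depth did not equalise list length. At that setting the WT lists in CTL kept 44144 and 30589 peaks at D1 and 7421 and 5583 at D5. In the 20000 strongest peaks the WT libraries had 16.7% and 16.045% at D1 in CTL, 13.8% and 13.9% at D5 in CTL, and 15.3% and 15.025% at D5 in MR. The D1 CTL and D0 libraries differed by 0.630 points (exact permutation p = 0.278), in a design whose smallest p is 0.0556.

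**Figure D1:**
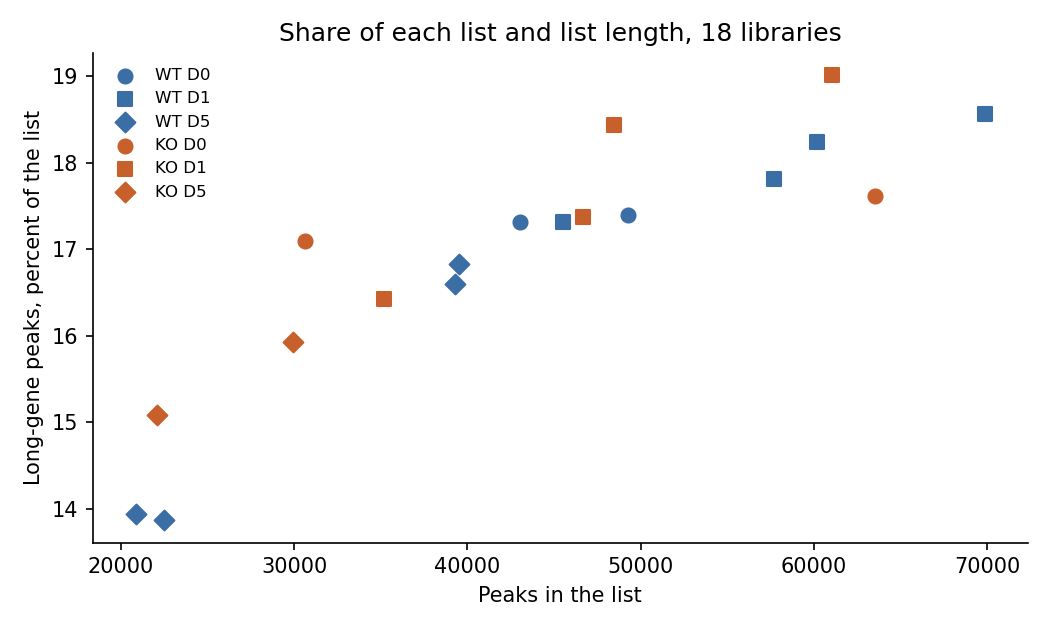
Percent of each list in deep long-gene regions (vertical axis) against the number of peaks in the list (horizontal axis) for the 18 libraries, with colour for genotype and marker for day. The D5 libraries sit at the lower left, from 13.9% to 16.8%, and the longest list, of 69881 peaks, has 18.6%.

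Methionine restriction had no called effect on this share. The mean difference, MR minus CTL, was 0.403 points, positive in 2 of 4 comparisons (exact permutation p = 0.472). In WT the share was higher in MR by 0.411 points at D1 and by 2.81 at D5. In KO the difference was -0.761 points at D1 and -0.849 at D5. The difference between the genotypes in the effect of restriction was -2.42 points, with the same sign at D1 and D5 (exact permutation p = 0.0185, adjusted 0.0407). It was not called with paired libraries, which leave fewer arrangements (-1.95 points, adjusted exact permutation p = 0.0688). Nor was it called in the 20000 strongest peaks per list (-0.483 points, adjusted 0.573). Without the D5 libraries it was -1.17 points (adjusted 0.533).

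Set against distal intergenic peaks, which also lie more than 10 kb from gene ends, deep long-gene peaks made up a smaller part in KO in every condition. Of the peaks in these 2 classes, deep long-gene peaks made up 43.6% and 42.7% in WT at D0 against 40.0% and 41.7% in KO lines 1 and 2. The values at D1 in CTL were 44.5% and 44.6% in WT against 40.8% and 42.5% in KO. Those at D1 in MR were 42.8% and 43.1% in WT against 39.8% and 39.7% in KO. At D5 they were 44.5% and 44.6% in WT in CTL against 40.0% in KO line 2, and 43.3% and 43.6% in WT in MR against 39.9%. The highest KO library, at 42.5%, lay below the lowest WT library, at 42.7%. The difference was -3.30 points, lower in 5 of 5 conditions, at the smallest p of the design (exact permutation p = 0.000514, adjusted 0.00566). Leaving out either WT replicate or KO line 2 changed the size little (-3.36 to -3.30 points), but the fewer arrangements left no call (adjusted exact permutation p 0.102 to 0.136). It was -3.69 points in the 20000 strongest peaks per list, -3.43 at equalised depth, and -3.18 without chromosomes 3, 4, 8, 12, 15 and 17, whose share of peaks had differed between KO and WT in an earlier analysis of these data. In the shallow D5 lists of KO line 1 the values were 39.3% in CTL and 43.6% in MR, and with all 20 libraries the difference was -3.00 points.

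**Figure D2:**
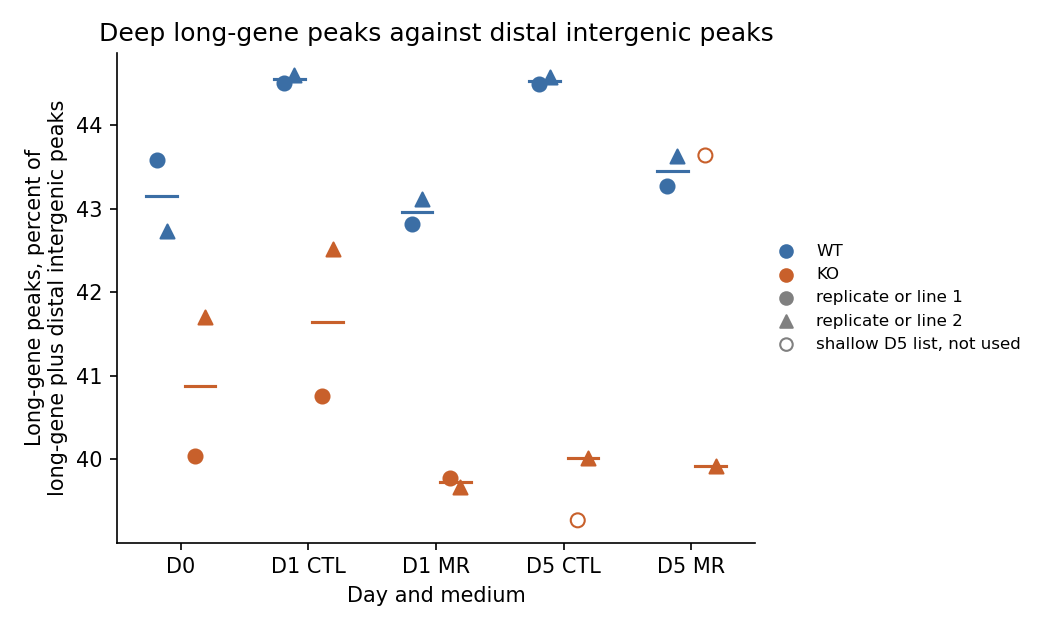
Deep long-gene peaks as a percent of deep long-gene plus distal intergenic peaks (vertical axis, not from 0) in each library by day and medium, with bars at the mean of the libraries used. All 8 KO libraries used lie at or below 42.5% and all 10 WT libraries at or above 42.7%, and open points are the shallow KO line 1 lists at D5.

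The same measure was lower in MR than in CTL in the unpaired test. With libraries paired the size was not smaller, but fewer arrangements were left and the call was lost. MR minus CTL was -1.59 points in WT at D1, -1.09 in WT at D5, -1.91 in KO at D1 and -0.0957 in KO line 2 at D5, with a mean of -1.17 points in 4 of 4 comparisons (exact permutation p = 0.00463, the smallest of the design, adjusted 0.0170). With paired libraries it was -1.32 points (adjusted exact permutation p = 0.0573), and with all 20 libraries it was -0.612 points (adjusted 0.564). D5 minus D1 was -0.243 points (exact permutation p = 0.704), so no D5 change was called against distal intergenic peaks. Peaks near gene ends took 59.8% of both WT D5 CTL lists, the highest share among the 18, whose median was 49.97%.

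The classes of peaks were next compared with all peaks more than 10 kb from a gene end as the base. These 15 comparisons were chosen after the data were seen, and their p-values were adjusted among themselves. Deep long-gene peaks were 34.9% of this base in WT and 33.5% in KO (difference over conditions -1.53 points, exact permutation p = 0.000514, adjusted 0.000772). Deep peaks of shorter genes were 20.1% in WT and 17.3% in KO (difference -2.72 points, the same exact permutation p), and distal intergenic peaks 44.96% and 49.2% (difference 4.25 points, the same exact permutation p), each in 5 of 5 conditions. These 3 shares sum to the whole, so they are not independent of each other. Relative to WT, the fall was 4.39% for long genes and 13.5% for shorter genes. Deep long-gene peaks accordingly took a larger part of all deep genic peaks in KO, 65.9% against 63.5% in WT (difference 2.27 points in 5 of 5 conditions, exact permutation p = 0.00103, adjusted 0.00566 over 11 tests).

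The sign of the difference depended on the length of the host gene. Regions in genes under 50 kb differed by -16.01% of the WT share, those in genes of 50 to 100 kb by -12.3% and those in genes of 100 to 200 kb by -11.2%. Regions in genes of 200 to 400 kb differed by -5.81%, from 12.2% of the base in WT to 11.5% in KO. In genes of 400 to 800 kb the share was 10.7% higher in KO, 4.79% of the base in WT and 5.32% in KO. In genes of 800 kb or more it was 36.9% higher, 1.40% in WT and 1.93% in KO. All 6 length classes had the same sign in 5 of 5 conditions, and their adjusted exact permutation p was between 0.000772 and 0.00331. The smallest difference was that of the 400 to 800 kb class at D1 in MR, at 0.00511 points. Each class kept its sign in 13 of 13 settings, the main one included. With all 20 libraries only the classes of 50 to 100 kb and 100 to 200 kb stayed called among these 6, and the 400 to 800 kb class was also not called without the D5 libraries (0.260 points) or without WT replicate 2 (0.501). Without KO line 2 the 200 to 400 kb class was not called (-0.227 points). In the lists of KO line 2 alone the 800 kb class differed by 0.532 points and the 100 to 200 kb class by -1.57 points. Regions of the longest genes were called in fewer libraries on average, 5.20 of 18 against 6.99 for genes of 100 to 200 kb, and whether the rarity of calls plays a part was not tested.

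**Figure D3:**
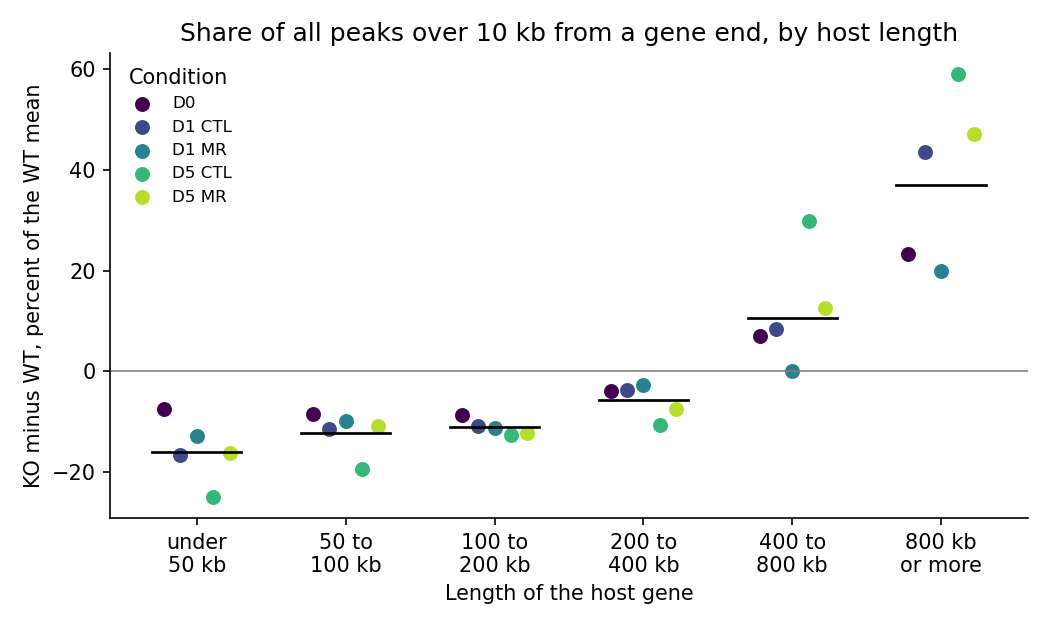
KO minus WT in the share of all peaks over 10 kb from a gene end, as a percent of the WT mean (vertical axis), by length of the gene that holds the region (horizontal axis). Points are the 5 conditions and black bars the mean difference, which goes from -16.01% under 50 kb to 36.9% at 800 kb or more.

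Host genes were also sorted by whether their start had a peak. For genes whose strand is known, the start was called as a peak within 1 kb in all 18 libraries for 448 long genes, in 1 to 17 for 624 and in 0 for 792. Regions in genes with a start peak in all 18 libraries took 9.33% of the base in WT and 8.21% in KO, a fall of 11.6% of the WT value (difference -1.09 points, 5 of 5 conditions, exact permutation p = 0.000514, adjusted 0.000772). Regions in genes with a start peak in some libraries took 10.5% in WT and 10.1% in KO (difference -0.397 points, adjusted exact permutation p = 0.00193). Regions in genes with no start peak took 7.13% in WT and 7.57% in KO (difference 0.366 points, higher in 4 of 5 conditions, adjusted exact permutation p = 0.00237). The difference between these classes was not itself tested. With all 20 libraries the class with a start peak in all 18 differed by -0.411 points and was not called (adjusted exact permutation p = 0.448). In KO line 1 without line 2, the start peak class of 1 to 17 libraries differed by -0.0947 points (adjusted exact permutation p = 0.222) and the class with none by 0.338 points (adjusted 0.0794).

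Position along the gene was known for 15587 regions (76.9%), since the strand came from the RefSeq start windows. Genes were cut into 3 or into 10 equal parts, counted from the start. Per Mb of gene that could hold such a region, the density was 36.0 over the whole and ran from 28.3 in part 1 of 10 to 38.7 in part 9, with 34.5 in part 10. The eligible length of parts 1 and 10 is small because the outer 10 kb of each gene is left out. The last of 3 parts held 31.5% to 33.2% of positioned peaks in the 18 libraries, the first 30.03% to 31.7% and the middle part 36.03% to 37.6%. Each part thus varied by under 2 points between libraries. KO minus WT in the last part was -0.225 points, lower in 3 of 5 conditions (exact permutation p = 0.329), and D5 minus D1 was -0.437 points (exact permutation p = 0.0525, adjusted 0.0962). Measured against all peaks far from gene ends, KO minus WT was -0.248 points in the first part, -0.449 in the middle part and -0.420 in the last, each in 5 of 5 conditions (adjusted exact permutation p = 0.00360, 0.000772 and 0.000772), and none of these 3 was called with all 20 libraries. With 10 parts, KO had a larger share of its positioned peaks in part 2 in 5 of 5 conditions, 11.5% ± 0.3003 (SD, n = 8) against 10.9% ± 0.251 (SD, n = 10). In parts 4 and 5 the difference was -0.355 and -0.322 points, lower in KO in 5 of 5 conditions. The 10 parts were not tested singly.

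**Figure D4:**
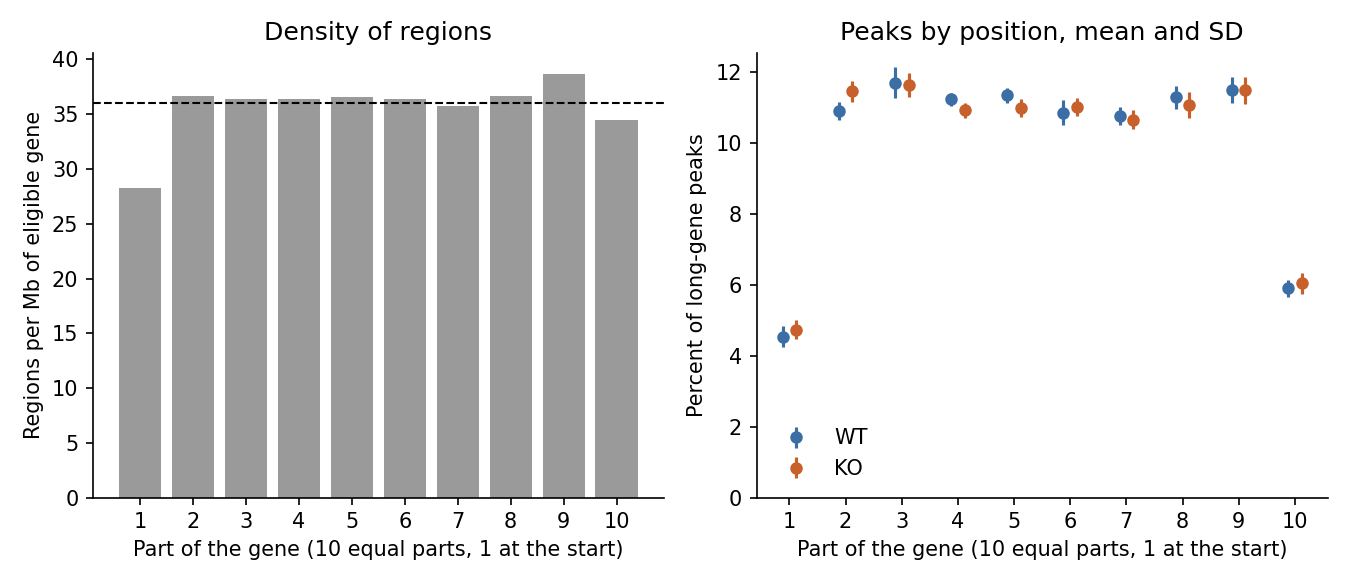
Left, deep long-gene regions per Mb of eligible gene in 10 equal parts of the gene from its start, with the overall 36.0 per Mb as a dashed line. Right, percent of positioned peaks in each part, mean and SD over 10 WT and 8 KO libraries, where the genotypes differ by at most 0.608 points.

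At the level of single regions, calls in the 10 WT and 8 KO libraries were compared by an exact permutation test within conditions, adjusted over all 19646 regions of the genome with enough variable calls to reach a small p. Of 4031 deep long-gene regions tested, 542 (13.4%) passed an adjusted p of 0.05, against a background of 11.5% over all regions tested. KO was called less often at 326 (background 6.86%) and more often at 216 (background 4.63%). The direction of these calls differed between settings. At equalised depth 540 of 2323 passed (background 19.8%), with 396 more often and 144 less often called in KO. That setting shortened the lists unequally. At D5 in CTL the WT lists went from 22465 and 20847 to 7421 and 5583 peaks, and KO line 2 from 29963 to 26749. KO line 1 at D0 went from 63530 to 33229. In the 20000 strongest peaks per list, 300 of 1982 were higher and 338 lower in KO (background 28% in either direction), and without KO line 2 964 of 1789 were higher and 466 lower (background 75.2%). Without WT replicate 1 or 2 0 passed, with 806 and 845 at an unadjusted exact permutation p under 0.05. Each of these settings left 108 arrangements against 1944, so a small adjusted p was hard to reach. In the main test distal intergenic regions split the other way, with 438 of 5619 higher (7.79%) and 271 lower (4.82%). Deep regions of shorter genes had 55 of 2138 higher (2.57%) and 180 lower (8.42%). Over all regions tested these percents were 4.63% higher and 6.86% lower. Within long genes with a start peak in all 18 libraries, 25 of 917 were higher and 82 lower (11.7% called), and with no start peak 66 of 953 were higher and 70 lower (14.3% called). By position, 46 of 882 were higher and 71 lower in the first of 3 parts (13.3% called), 55 and 89 of 1133 in the middle (12.7%) and 60 and 88 of 1027 in the last (14.4%). The corresponding percent over all regions was 11.5%, and these percents were not compared by a test.

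The regions with the clearest genotype difference were seen in every library of one genotype and in none of the other. At an internal region of Ncoa2 (chr1:13236407-13236625), a nuclear receptor coactivator gene, 10 of 10 WT libraries had a peak and 0 of 8 KO libraries. The same counts held in Tns1 (chr1:74049508-74049778), encoding the focal adhesion protein tensin, in Lrrfip1 (chr1:91032655-91032845) and in Med27 (chr2:29402680-29402990), encoding a Mediator subunit. All these regions were well inside their genes, 35.7 to 97.3 kb from the nearest gene end. At equalised depth the Tns1 difference was no longer called (difference in call rate -0.4, adjusted exact permutation p = 0.275).

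The opposite pattern, 0 of 10 WT and 8 of 8 KO libraries, was found in Pkhd1 (chr1:20069722-20069997), which encodes the cilium protein fibrocystin, and 3 times in Aff3, a nuclear protein gene of the AF4/FMR2 family. The Aff3 regions were chr1:38262466-38262920, chr1:38286667-38286951 and chr1:38292895-38293189, 74.1% to 80.8% of the way along the gene. In KO they were seen in 3 of 3 line 1 and 5 of 5 line 2 libraries. All 8 named regions had the smallest p of the design (exact permutation p = 0.000514, adjusted 0.0327), as did others, and the order among ties followed calls and position.

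Counted within single conditions, regions called in both libraries of one genotype and neither of the other were more often WT only in each of the 3 conditions with 2 libraries of each genotype, over all regions as well. At D0, 431 of 13263 deep long-gene regions were KO only (background 2.51%) and 948 WT only (background 5.36%). At D1 in CTL, 1008 of 15766 were KO only (background 5.41%) and 1127 WT only (background 6.45%). At D1 in MR, 305 of 15402 were KO only (background 1.61%) and 2904 WT only (background 17.7%). List length differed most at D1 in MR, with 57676 and 69881 peaks in WT against 35201 and 48460 in KO. At D0 the lists held 43058 and 49281 peaks in WT against 63530 and 30629 in KO, and at D1 in CTL 60173 and 45545 against 61045 and 46664. No p-value below 0.333 is possible for 2 libraries against 2, so these are counts.

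In the unpaired tests of day and medium over the 18 libraries no single region was called. Of 3065 deep long-gene regions tested for D5 against D1, 0 passed (background 0%), although the exact permutation test gave 1589 an unadjusted p under 0.05, of which 1588 were lower at D5. With the libraries of a KO line, and WT libraries of the same number, kept in pairs, 139 of 149 tested passed (93.3%, background 91.6%), all lower at D5. With all 20 libraries 2283 of 3368 passed (67.8%, background 66.2%), all lower at D5, and without KO line 1 798 of 884 passed (90.3%, background 90.1%). At each of these settings the share was thus near that over all regions. With pairs and without KO line 1, only 149 and 884 regions had calls that allowed a small p, against 3065. The high percents there partly follow from this entry rule and cannot be set beside the 0 of 3065. For MR against CTL, 0 of 500 passed (background 0%), and 55 had an unadjusted exact permutation p under 0.05, 48 of them higher in MR.

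Gene by gene, the deep peaks of many long genes took a different share in KO. For each of 854 genes with enough peaks, the share was expressed per 1000 deep long-gene peaks of the library, which removes list length but not its effect on which peaks are seen. In 310 genes the share differed (36.3% of those tested), with 167 lower in KO (19.6%) and 143 higher (16.7%), by the exact permutation test adjusted over these genes. All the genes tested are hosts of these regions, so these percents have no outside background. Without adjustment 395 had a p under 0.05. In 298 of the 310, both KO lines lay on the same side of WT at D0 and D1, and in 54 the WT and KO libraries did not overlap. The same libraries had selected these genes, so the counts are not a separate check. The genes lower in KO had a median length of 199 kb and those higher 283 kb, against 205 kb over all tested. Of 420 genes of 100 to 200 kb 85 were lower and 41 higher, whereas of 159 genes of 400 kb or more 27 were lower and 48 higher. At equalised depth 155 of 531 genes passed. Without WT replicate 1, WT replicate 2 or KO line 2, 0 genes passed, with 234, 254 and 367 at an unadjusted exact permutation p under 0.05. These settings left 108, 108 and 27 arrangements against 1944, so a small adjusted p was hard to reach.

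**Figure D5:**
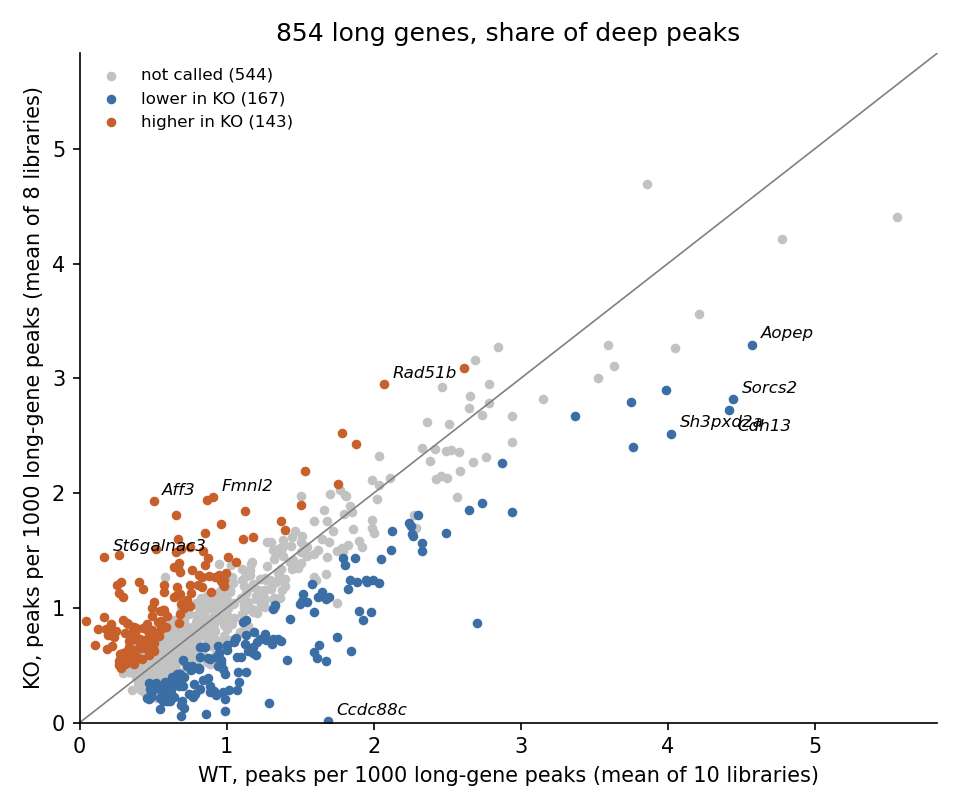
Mean peaks per 1000 deep long-gene peaks in KO (vertical axis) against WT (horizontal axis) for 854 long genes, with the diagonal of equal values. Colours mark genes lower (167) or higher (143) in KO at an adjusted p of 0.05, and Ccdc88c lies close to 0 in KO.

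Among the genes with the largest falls was Ccdc88c, which encodes a Dishevelled-binding protein and held 22 regions. WT libraries had 6 to 18 peaks there, median 13, and KO libraries 0, apart from 1 peak in the line 2 library at D1 in CTL. The WT share was 1.69 ± 0.254 per 1000 (SD, n = 10) and the difference -1.67 (adjusted exact permutation p = 0.00396). Over all regions of Ccdc88c, those near its ends included, 21 of 23 were called in at least 1 WT and no KO library. In the 1 Mb before Ccdc88c KO libraries had 11 to 39 regions called, against 21 to 73 in WT. Of the 93 regions there, 46 were called in at least 1 WT and no KO library, and 5 the other way. In the 1 Mb after Ccdc88c 3 to 8 were called in KO and 5 to 11 in WT. Ccdc88c lies on chromosome 12, among the chromosomes named above for a shifted share, where 11 of 30 tested genes were lower and 2 higher. Of the other large falls and rises below, Rad51b is also on chromosome 12, Cdh13 on 8 and St6galnac3 on 3. The part of these chromosome shifts in the gene differences was not tested.

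The adhesion gene Cdh13, encoding a cadherin anchored to the membrane by lipid, fell from 4.42 ± 0.643 to 2.72 ± 0.851 per 1000 (SD, n = 10 and 8, adjusted exact permutation p = 0.00396). At D0 and D1 the difference from WT was -2.22 in KO line 1 and -0.539 in line 2. Sorcs2, encoding a sorting receptor, fell by 1.55 per 1000, Sh3pxd2a, encoding a podosome scaffold, by 1.48, Msi2, encoding an RNA-binding protein, by 1.45, Aopep, encoding an aminopeptidase, by 1.44 and Ccdc162 by 1.28 (adjusted exact permutation p between 0.00396 and 0.0151). For Msi2 the direction turned to 0.323 higher when all 20 libraries were used, and Sorcs2, Sh3pxd2a and Aopep were not called without the D5 libraries. With all 20 libraries Cdh13, Sorcs2, Sh3pxd2a and Aopep were not called either. The median counts in these genes were between 12 and 33 in WT and between 4 and 23.5 in KO.

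Aff3 rose most. WT libraries had 0 to 10 peaks in its 29 regions, median 4, and KO libraries 7 to 25, median 11. At D0 the counts were 4 and 4 in WT and 23 and 9 in KO, and at D1 in CTL 5 and 4 in WT and 25 and 11 in KO. Its share was 0.503 ± 0.220 in WT and 1.93 ± 0.342 in KO per 1000 (SD, n = 10 and 8, difference 1.42, adjusted exact permutation p = 0.00396), and the lowest KO library, at 1.36, lay above the highest WT library, at 0.771. In the 1 Mb before Aff3 10 to 26 regions were called in WT and 9 to 16 in KO, and in the 1 Mb after it 11 to 31 and 11 to 25. St6galnac3, a sialyltransferase gene with no start peak in any library, had 0 to 4 peaks in WT and 4 to 25 in KO, and its share rose by 1.27. At D5 it had 0 peaks in all 4 WT libraries and 8 and 4 in KO line 2. All 26 of its regions are deep, and 21 of them were called in at least 1 KO and no WT library. In the 1 Mb on either side the ranges overlapped, with 11 to 31 and 4 to 22 regions called in WT and 12 to 36 and 6 to 32 in KO.

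The other genes with the largest rises were Fmnl2, encoding an actin-nucleating formin (1.19 per 1000 higher), Rad51b, encoding a DNA repair protein (1.15), Slc24a3, encoding a sodium and calcium exchanger (1.11), the retinoic acid receptor gene Rarb (1.11), the acid-sensing channel gene Asic2 (1.08) and Tgfbr3, encoding a TGF-beta co-receptor (1.03), with adjusted exact permutation p between 0.00396 and 0.00987. KO line 1 was 2.02 and line 2 0.463 above WT in Rarb at D0 and D1, so the size differed between the lines. Rad51b was not called without the D5 libraries, and neither Rad51b nor Fmnl2 with all 20 libraries. Tgfbr3 had 0 to 7 peaks in WT and 5 to 13 in KO, with no overlap of the shares, 0 to 0.539 against 0.715 to 1.68 per 1000.

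The genes with the most regions were Sorcs2, Aopep and Gse1 with 66 each, Cdh13 and Pde4d with 62, Pakap with 59, Kalrn with 58, Rptor with 57, Dlgap2 with 56, Nav2 with 54, Agap1 with 53 and Arhgap26 with 51. Of these 12, Sorcs2, Aopep, Cdh13, Rptor and Agap1 were lower in KO and Arhgap26 higher. Pde4d, a cyclic AMP phosphodiesterase gene of 1302 kb, was not called, at 2.42 ± 0.764 in WT and 2.38 ± 0.914 in KO (SD, n = 10 and 8, adjusted exact permutation p = 0.686), with 3 to 46 peaks per WT library. At D0 and D1 its KO lines lay on opposite sides of WT, 0.615 higher in line 1 and -1.04 from WT in line 2.

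Gene lists chosen with earlier results of these data known are given by their counts, beside the 19.6% lower and 16.7% higher over all tested genes, and the median difference of all 854 was -0.0120 per 1000. Of 15 tested genes of muscle structure and calcium handling, 0 were lower and 1 was higher, with a median of 0.0275. Utrn, encoding the dystrophin relative utrophin, had 1.049 ± 0.243 in WT and 0.910 ± 0.166 in KO per 1000. The membrane repair gene Dysf had 0.984 ± 0.323 and 0.751 ± 0.292, and neither was called (SD, n = 10 and 8, adjusted exact permutation p = 0.326 and 0.302). Palld and Camk2d, also among the 4 of this list with most regions, lay higher in KO and were not called either. Palld had 1.27 ± 0.369 and 1.57 ± 0.222, and Camk2d 1.02 ± 0.315 and 1.19 ± 0.323 (SD, n = 10 and 8, adjusted exact permutation p = 0.117 and 0.259). Of 30 transcription factor genes 1 was lower and 8 were higher, among them Foxp1, which rose by 0.559 per 1000 (adjusted exact permutation p = 0.00809). Runx1, with 35 regions, had 2.74 ± 0.671 in WT and 2.68 ± 0.527 in KO (SD, n = 10 and 8, adjusted exact permutation p = 0.966). Of 33 adhesion, matrix and actin genes 6 were lower and 7 higher, with Cdh13 among the lower. Tns1 as a whole gene had 3.59 ± 0.784 and 3.29 ± 0.446 per 1000 and was not called, although its region named above was seen in WT alone (SD, n = 10 and 8, adjusted exact permutation p = 0.461).

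Of 21 signalling genes 2 were lower and 7 higher. Rptor, encoding the mTORC1 subunit raptor, fell by 1.12 per 1000 (adjusted exact permutation p = 0.0334), with a difference from WT of -1.01 in line 1 and 0.0212 in line 2 at D0 and D1. Plcb1, a phospholipase C gene, rose from 0.657 ± 0.263 to 1.48 ± 0.341 (SD, n = 10 and 8, adjusted exact permutation p = 0.00396). Of 9 synaptic and neuronal adhesion genes 0 were lower and 4 higher, with a median of 0.330. Asic2 and Dlg2 were among the higher, Dlg2, a synaptic scaffold gene, by 0.420 per 1000 (adjusted exact permutation p = 0.0365), while Nrg1 and Ptprd were not called. These named genes are 1084 to 2271 kb long. Of all 159 tested genes of 400 kb or more, 27 were lower and 48 higher, with a median difference of 0.0942. The list was not compared with genes of like length by a test. Of 8 chromatin genes 2 were lower, Arid1b, encoding a BAF complex subunit (difference -1.01 per 1000), and the histone deacetylase gene Hdac4 (-0.556), and 1 was higher, the methyltransferase gene Smyd3 (0.242) (adjusted exact permutation p = 0.00396, 0.0243 and 0.0165).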

How the data were processed

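The authors deposited 1 peak list per library, with replicates not pooled. Per the file columns, each deposited peak has a fold enrichment over background (a ratio), a −log10 p-value and a −log10 q-value, and these were used to rank or filter peaks within a list and to read depth. The build is GRCm38 per the submitters' processing notes, and the aligner, read filters and peak caller are not given in the sources used here. Depth was solved from the fold and Poisson p-value of the commonest peak in each list, which assumes the caller's formulas. Gene positions came from a RefSeq table (GRCm38.p6, 21631 protein-coding genes) and strand from RefSeq start windows.

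Peaks of 20 lists were merged at 1 bp overlap, and 81 regions with more than 1 long host were left out of counts by gene and position. Groups came from the sample titles. Tests used 18 libraries, leaving out the D5 libraries of KO line 1. Labels were permuted in every way within conditions (two-sided exact permutation, Python 3.11.15, numpy 2.4.6), and p-values were adjusted by Benjamini-Hochberg over 11 share tests, all testable regions, or the 854 genes with a mean of at least 3 peaks per library. The tests were run on simulated data in which libraries varied independently. That check cannot cover the dependence between libraries of the same KO line given next. KO libraries of the same line deviated together (correlation of the difference between lines across conditions 0.258 to 0.396 in 3 pairs), while WT replicate numbers did not (-0.0296 to 0.0450 in 10). The pairing thus comes from the KO lines and can be used for day and medium only. The genotype tests permuted labels in each condition separately. They therefore counted libraries of the same KO line as separate units, and their p-values do not allow for this dependence. Genes were named by fixed ranks: the 12 with most regions, up to 8 per direction by size of the difference, 4 regions per direction by p and total calls, and the 4 genes of each list with most regions. 1 gene that these ranks select is not reported here. The regions around 3 genes and the 15 added comparisons were chosen after their values were seen. Members, lists and tests were chosen with earlier results of these data known. Alternatives changed depth, peak strength, overlap, distance, gene length, libraries and pairing.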

Additional observations from a re-analysis of the deposited data

Results flagged for a closer look

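The effect of methionine restriction on the share of the list in deep long-gene regions differed between the genotypes by -2.42 points, and a test of that difference itself drew attention to it (exact permutation p = 0.0185, adjusted 0.0407). The share was higher in MR in WT, by 0.411 points at D1 and 2.81 at D5, and changed by -0.761 and -0.849 points in KO. KO at D5 was 1 library per medium. List length moved with the share, since the WT D5 lists held 20847 and 22465 peaks in CTL and 39263 and 39538 in MR, and the KO line 2 lists 29963 and 22062. In the 20000 strongest peaks per list the difference was -0.483 points.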

How the results depend on the processing

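The genotype difference in deep long-gene peaks against distal intergenic peaks (-3.30 points) kept its sign in every alternative run, and stayed called except where fewer libraries left too few arrangements for a small p: without the D5 libraries it was -2.81 points (adjusted exact permutation p = 0.0741), and leaving out single replicates or lines gave -3.36 to -2.97. The long-gene part of deep genic peaks (2.27 points) was 1.65 without the D5 libraries and 1.73 to 2.56 leaving out single ones. The effect of restriction against distal peaks (-1.17) was -0.612 with all 20 libraries, -1.75 without D5, -0.617 for genes of 200 kb or more, -1.32 with the replicate block, and -1.40 to -1.11 leaving out single ones. The fall of the share at D5 (-2.49) was -2.25 with the replicate block and -2.68 to -2.04 leaving out single ones. In the other share tests that had it, the block changed 1 more call, that of the interaction.

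The interaction (-2.42) was not called in most alternatives: it was -1.92 with all 20 libraries, -1.17 without D5, -1.95 with the replicate block, -0.483 in the 20000 strongest peaks, -2.22 at equalised depth, -2.38 at a −log10 q-value of at least 2, -1.39 for genes of 200 kb or more, -1.83 by covered bases, -2.49 without chromosomes 3, 4, 8, 12, 15 and 17, -2.03 where a peak had to cover 50% of its region, and -2.51 to -0.987 leaving out single replicates or lines. The share of the last of 3 gene parts, which differed between D5 and D1 by -0.437, became called at equalised depth (-1.08), 20 kb from gene ends (-0.613), for genes of 200 kb or more (-0.746) and by covered bases (-0.545). By covered bases this part also differed by genotype (-0.289), and D5 and D1 differed against distal peaks (-0.799).

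Gene counts (310) were 164 with all 20 libraries, 157 with the replicate block, 105 in the 20000 strongest peaks, 155 at equalised depth, 192 for genes of 200 kb or more, 177 at 50% cover and 0 to 303 leaving out single replicates or lines. Gene counts of 0 came from settings that left 108 or 27 arrangements. Of the called genes 177 of 181 kept their sign at equalised depth and 265 of 283 with all 20 libraries, where Msi2 turned to 0.323. Region counts for genotype were 542 of 4031 tested in the main test (background 11.5%). With all 20 libraries 824 of 3749 passed (background 18.8%), 127 higher and 697 lower. Without D5 347 of 1570 passed (background 18.8%), 92 and 255. The replicate block gave 769 of 986 (background 73.1%), 243 and 526, and few regions could be tested there. For genes of 200 kb or more 321 of 2277 passed (background 11.5%). At 50% cover 0 of 3990 passed (background 0%), with 1716 at an unadjusted exact permutation p under 0.05. Leaving out single replicates or lines gave 0 to 1430 (background 0% to 75.2%). Region counts for D5 (0 of 3065 tested) were 2283 of 3368 with all 20 libraries (background 66.2%) and 139 of 149 with the replicate block (background 91.6%). Leaving out single ones gave 0 to 798 (background 0% to 90.1%). Counts for 2 against 2 libraries (6723) were 2653 in the 20000 strongest peaks and 3812 for genes of 200 kb or more. WT replicate numbers mark no shared culture, so the genotype values with the block pair libraries by number only. The planned rule of 50% overlap either way removed no peak, and a stricter cover rule was added after seeing the data. Depth limits which regions were seen, and a region with no peak is not shown to be closed.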
